A study of Mus musculus with 6 samples.

Results

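Translation initiation and elongation factors are the proteins that place the ribosome at the start codon of an mRNA and then carry it along the coding sequence. Their genes were chosen by name, as those whose array symbol begins with Eif1 to Eif6, Eef1 or Eef2, without the kinases named Eif2ak and Eef2k. This rule took 61 of the 36163 genes on the array and 92 of its 55681 probes, and each gene was read by the probe with the highest mean signal over all arrays. The rule uses names and probe signal and no difference between genotypes, but the set was proposed with earlier results of these data known. The probes of 57 members were bright enough to be tested, out of 18233 genes tested in all. The symbols did not mark translation factors alone: Eif2c1, Eif2c2, Eif2c3 and Eif2c4 are older names of the argonaute genes Ago1 to Ago4, whose proteins carry small RNAs in gene silencing. They fall under the rule and are kept apart below.

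The data come from 6 one-colour Agilent arrays of B1a cells sorted from the peritoneal cavity (PC) of 7-week-old female mice of strain C57Bl/6. B1a cells are innate-like B lymphocytes of the body cavities, sorted here by surface antigens with CD5 and CD11b among them. The case group was p40-/-CD25-/- mice (3 arrays, called knockout below) and the control group p40-/-CD25+/- mice (3 arrays), so the comparison asks how PC B1a cells differ once the second copy of CD25 is lost as well. CD25 is the alpha chain of the interleukin-2 receptor, encoded by Il2ra, and p40 is the shared subunit of interleukins 12 and 23, encoded by Il12b. Both groups carried the p40 deletion, and no animal wild type for p40 is among these arrays. The knockout mice develop autoimmune cholangitis and lack the receptor chain in every cell, so a difference in B1a cells need not start within them. Each sample held cells of at least 3 mice. No source used here says that the 3 samples of a group came from separate sorts of separate animals, so p-values measure the spread between these samples, which may be partly technical.

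Initiation starts when eIF2 brings the initiator tRNA to the small ribosomal subunit, where eIF1, eIF1A, eIF5 and the large eIF3 complex join it. eIF4E binds the mRNA cap, eIF4G bridges the cap to eIF3, and the helicase eIF4A with eIF4B opens the mRNA leader, while the 4E-BP proteins hold eIF4E in check when growth signals are low. eIF2B recharges eIF2 with GTP after each round. During elongation eEF1A delivers the charged tRNAs, the eEF1B subunits recharge it, and eEF2 moves the ribosome on by a codon. Many elongation factor mRNAs, with those of the ribosomal proteins, begin with a run of pyrimidines (a 5′ TOP) through which growth signals control their translation, and plasma cell formation is a known setting of rising protein synthesis in B cells.

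Runs of C and T around the members' start sites are shown, since mRNAs of this class begin with such a run. RefSeq start sites (GRCm38.p6) were in the table for 47 members, with 60 sites. A run of at least 10 pyrimidines on the transcribed strand that held or touched the first base was found at 6 of these 60 sites (10%), and at 984 of 32851 start sites of all genes (3.00%). Each line gives 30 bases 5′ to 3′ in the transcribed direction, of which the first 15 lie before the start site, and capitals mark the run. Eef1b2 is shown as a listed 5′ TOP mRNA whose database start site has only a short run.
Eif2b5 (chr16:20498802-20498831, + strand): CCTTCCTCTTTCTCTCCCTgcaactacacc
Eif2s3x (chrX:94212637-94212666, - strand): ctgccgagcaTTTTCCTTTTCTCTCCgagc
Eif3f (chr7:108934400-108934429, + strand): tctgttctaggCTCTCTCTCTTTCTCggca
Eef1a1 (chr9:78481710-78481739, - strand): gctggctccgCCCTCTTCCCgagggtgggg
Eif3l (chr15:79075208-79075237, + strand): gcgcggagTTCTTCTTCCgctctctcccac
Eif4enif1 (chr11:3203004-3203033, + strand): ccctgCCCTTCTTCCggaggagcctctagc
Eef1b2 (chr1:63176816-63176845, + strand): tggacctgcagTTCCgccggaagtagccga
The run of Eif2b5 was 21 bases long and reached beyond the window, that of Eif2s3x 16, that of Eif3f 15 and those of Eef1a1, Eif3l and Eif4enif1 10 bases. Of the 6 genes with a long run, Eif3f and Eef1a1 are on the list of 5′ TOP mRNAs used below and the others are not, while the listed Eef1b2, Eef2 and Eif4b had runs of 4, 1 and 1 bases, so a run at these sites and the list do not mark the same genes. Bases before the start site were counted as well, so a run need not lie in the mRNA. That of Eif4enif1 lies wholly before the start site, as do most bases of those of Eif2b5 and Eif3l. A run is a description of these letters at a database start site, not a tested control element.

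The probes themselves are shown for Eef1a1, which had the smallest adjusted p of the members, and for Eef1g, Eif2s3x and Eif4a2, as examples of members whose probes gave unlike differences. Each probe is 60 bases long, and 30 bases of it are printed 5′ to 3′ with its position in mm9, the build of the array files. For Eef1a1 the capitals mark the 10 bases that the brighter and the dimmer probe share, and the other probes are in lower case.
Eef1a1, brighter probe, first 30 bases (chr9:78326385-78326444, - strand): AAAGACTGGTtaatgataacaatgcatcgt
Eef1a1, dimmer probe, last 30 bases (chr9:78326435-78326494, - strand): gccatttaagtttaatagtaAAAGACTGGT
Eef1g, brightest probe, first 30 bases (chr19:9052620-9052679, + strand): tgcacctaccctccaagggagatgggggtc
Eef1g, next probe, first 30 bases (chr19:9051808-9051870, + strand): tacctttgtgttggatgagtttaagcgtaa
Eif2s3x, brightest probe, first 30 bases (chrX:91435083-91435142, - strand): gaacaataccaccaataaggggtctctgct
Eif2s3x, next probe, first 30 bases (chrX:91436226-91441634, - strand): cagaagagttgagaaacactggcgtttaat
Eif4a2, brightest probe, first 30 bases (chr16:23113939-23113998, + strand): gggttaaacccccagtaaaattgccatatt
Eif4a2, next probe, first 30 bases (chr16:23110158-23110217, + strand): ctgaagcccctcacattgttgttggtactc
The second Eif2s3x probe is given a span of several kilobases in the array annotation, as a probe across an exon junction would be. The exon or untranslated region under each probe was not looked up, since no annotation of this build was used here.

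Values below are log2 processed signals minus the log2 of the 75th percentile of the array, so that 0 is the level of that percentile, and every difference is knockout minus control. This percentile lay at signals of 252 to 272 on the control arrays and 66.5 to 162 on the knockout arrays, and 47.2 to 50.6% of spots were well above background on the former against 39.7 to 45.9% on the latter. No spot was saturated, and all 6 arrays lay on 1 slide. Il2ra had a difference of -1.38 (SE 0.37, limma adjusted p = 0.121) and a probe above background on every array, and whether that probe lies within the deleted part was not checked, so it does not test the labels. Il12b, deleted in both groups, had a difference of -0.02 with a probe likewise above background on every array, whose place was not checked either. Xist, the RNA of the inactive X chromosome, had a difference of 0.80 (SE 0.15, limma adjusted p = 0.0913) without overlap, and its part in the values of the X-linked members Eif2s3x and Eif1ax was not tested. Cd5 and Itgam, which encode CD5 and CD11b, were well above background on every array, and the summed level of the B cell markers Cd5, Itgam, Cd79a, Cd79b, Ms4a1 and Spn was 1060 to 1110 in control and 1120 to 1340 in knockout samples (linear units of the 75th percentile).

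No translation factor gene passed an adjusted p of 0.05 in limma, against 7 of 18233 genes (0.0384%) on the whole array, and the smallest adjusted p of a member was 0.113. The background correction bears on this: with normexp and the 75th percentile, under which 35.5% of all genes passed, 16 members passed as lower, Eif1ax, Eif2s1, Eif2b5, Eif3b, Eif3h, Eif3l, Eif4a2, Eif4e, Eif4ebp1 and Eif5a among them, and 3 as higher. At an unadjusted p under 0.05, 2 members were lower (3.51% of 57, against 13.6% of all genes) and 5 were higher (8.77%, against 11.6% of all genes). By the study's own criterion, a 2-fold difference with an unadjusted p of at most 0.05, 1 member was called, Eif4e3, in the direction of higher signal in knockout samples (3.52% of all genes were called in either direction and 2.25% as higher). Without normexp, the shares of members called were thus below those of the array as a whole under each of these criteria except that of the adjusted p, under which both were close to 0.

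The bulk of the members lay slightly below 0. Of the 57 tested, 47 had a lower mean in knockout samples (82.5%, against 60.2% of all genes) and 10 a higher mean, and their median difference was -0.18, against -0.12 over all genes tested. This split depends on the scaling of the arrays and on the background correction. With another scaling, 34 of 57 were lower after quantile normalization, 35 in the deposited table and 37 with scaling on the median of detected probes. With normexp background correction, 50 were lower with the 75th percentile and 33 with quantile normalization. All 3 knockout samples were below all 3 control samples for 15 members (26.3%, against 21.6% of all genes) and above them for 7 (12.3%, against 14.7%), and the groups overlapped for the remaining 35 (36.3% of all genes did not overlap in either direction). Most member probes are bright, and 38 of 57 lay among the 4559 genes with the highest mean signal. There the median difference was -0.18 for members and -0.18 for all genes, and among the 4558 genes next in signal it was -0.25 for 13 members and -0.21 for all genes. The medians of members and of other genes of like brightness were thus close, while the share below 0 was higher among the members, at 33 of 38 (86.8%, against 69.2% of all genes) and 11 of 13 (84.6%, against 75.9%), a difference that was not tested. Dim genes leaned the other way, with a median of 0.11 over the 4558 dimmest genes, where the 2 members, Eif4e3 and Eif2c3, had a median of 0.80. Between these, 4 members had a median of -0.10 and all genes -0.04. In bulk samples such as these, fewer cells of a type and less RNA per cell cannot be told apart.

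**Figure D1:**
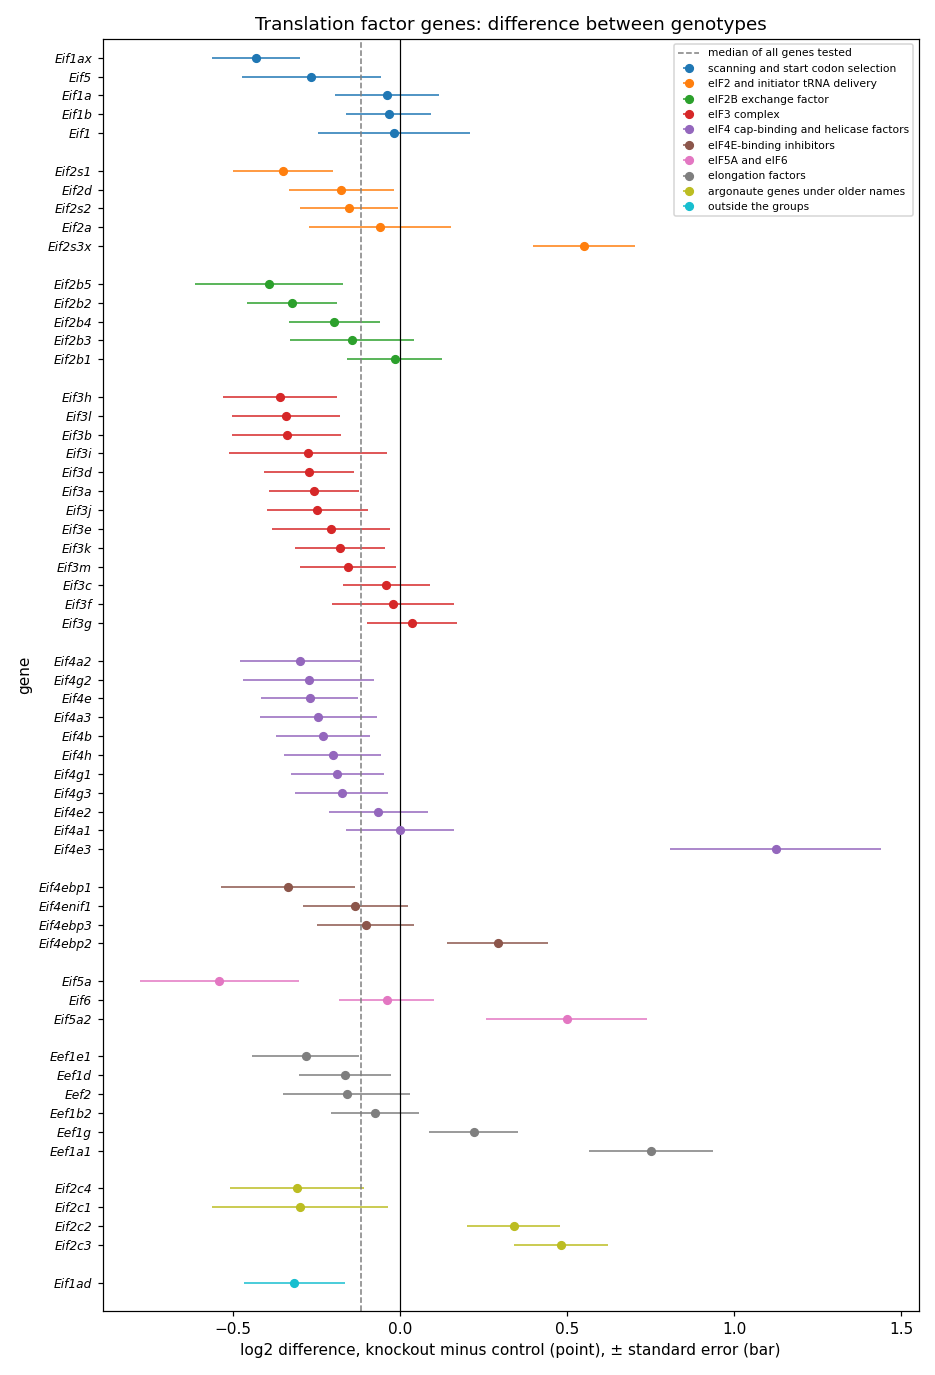
Log2 difference between genotypes (knockout minus control, horizontal axis) for the 57 members tested, grouped by role; points are limma estimates from 3 arrays per genotype, bars are ± 1 standard error, and the dashed line is the median of all genes tested. Most points lie between -0.4 and 0, and Eif4e3, Eef1a1 and Eif2s3x stand to the right.

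**Figure D2:**
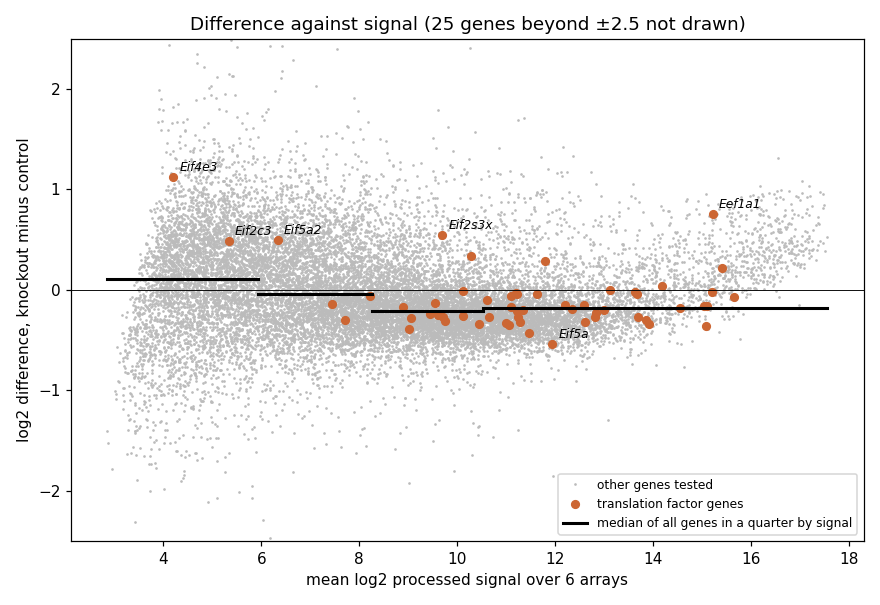
Log2 difference (vertical axis) against mean log2 processed signal over the 6 arrays (horizontal axis) for all genes tested (grey, 25 beyond the axis limit of 2.5 not drawn) and the members (orange). Black lines give the median of all genes in each of 4 equal classes by signal, -0.21 and -0.18 in the brighter ones, and most members lie close to them.

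The elongation factors held the smallest adjusted p of the set. Eef1a1, which encodes the main eEF1A that delivers charged tRNAs, had values of 7.32, 7.48 and 7.48 in control samples and 8.04, 8.53 and 7.97 in knockout samples. All knockout samples lay above all control samples, and the second stood highest. The difference was 0.75 (SE 0.19, 95% interval 0.32 to 1.19, a 1.68-fold ratio), with an unadjusted p of 0.005 and a limma adjusted p of 0.113. Eef1a1 passed an adjusted p of 0.05 when the variance was estimated with a trend and robustly (0.0251) or with array weights (0.0445), and its difference was 0.43 with normexp and the 75th percentile.

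Eef1g, the gamma subunit of the eEF1B exchange factor, was read at 7.85, 7.92 and 7.84 in control and 7.98, 8.13 and 8.18 in knockout samples. The groups did not overlap, although the difference of 0.22 (SE 0.13) did not pass the test (limma adjusted p = 0.306) and turned to -0.15 with the mean of its 3 probes and to -0.10 with normexp and the 75th percentile. The other eEF1B subunits lay the other way, Eef1b2 with a difference of -0.07 (SE 0.13) and Eef1d with -0.16 (SE 0.14). After quantile normalization these were -0.33 and -0.31, and with normexp and the 75th percentile -0.38 and -0.50, without passing. Eef2, the translocation factor, was at 7.52, 8.0 and 7.76 in control and 7.82, 7.36 and 7.62 in knockout samples, with groups that overlapped and a difference of -0.16 (SE 0.19). Eef1e1, which encodes a protein of the aminoacyl-tRNA synthetase complex despite its symbol, had a difference of -0.28 (SE 0.16). Eef1a2, the eEF1A of muscle and neurons, was not well above background on any array. In all, 4 of the 6 tested members of this group were lower and 2 higher, with a median of -0.12.

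The mRNAs listed as carrying a 5′ TOP spread to both sides. Of the 9 listed members, all tested, 7 were lower and 2 higher, with a median of -0.16, near that of all members, and 1 had an unadjusted p under 0.05 (11.1% as higher, against 11.6% of all genes). Among the genes whose start windows are printed above, the differences were -0.39 for Eif2b5, 0.55 for Eif2s3x, -0.02 for Eif3f, 0.75 for Eef1a1, -0.34 for Eif3l and -0.13 for Eif4enif1. Genes with a long run around a start site thus lay on both sides of 0, and Eef1b2, with a run of 4, was at -0.07. No test was made over these few genes.

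eIF2 is built of 3 subunits, and the brightest probes of its genes gave differences of unlike sign, which were not tested against each other. Eif2s3x, the X-linked gene of the gamma subunit that binds GTP and the initiator tRNA, had values of 2.00, 1.85 and 2.15 in control and 2.46, 2.71 and 2.47 in knockout samples, with no overlap. Its difference was 0.55 (SE 0.15, 95% interval 0.19 to 0.91), with an unadjusted p of 0.008 and a limma adjusted p of 0.123, and it was 0.27 with normexp and the 75th percentile and 0.22 as the mean of its tested probes. Eif2s1, the alpha subunit whose phosphorylation shuts initiation down under stress, had a lower mean.

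Eif2s1 was at 3.76, 3.72 and 3.97 in control and 3.31, 3.52 and 3.58 in knockout samples. These groups did not overlap either, and the difference was -0.35 (SE 0.15, 95% interval -0.70 to 0.005, limma adjusted p = 0.201). A dimmer Eif2s1 probe gave 0.14 (SE 0.16), and the mean of both was -0.10. The value was -0.16 after quantile normalization, and -0.61 with a pass at an adjusted p of 0.0248 with normexp and the 75th percentile. Eif2s2, the beta subunit, had a difference of -0.15 (SE 0.15) with overlapping groups. Eif2a and Eif2d, alternative factors that bring tRNA to the ribosome without eIF2, differed by -0.06 (SE 0.21) and -0.18 (SE 0.16). Eif2s3y, the Y-linked copy of the gamma subunit gene, was not well above background on any array, and all mice were female.

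All 5 subunit genes of eIF2B, the factor that recharges eIF2 with GTP, had a lower mean in knockout samples, with a median of -0.20, and 2 of them did not overlap between groups (40%, against 21.6% of all genes). Eif2b2 was at 5.28, 5.38 and 5.39 in control and 5.02, 4.92 and 5.13 in knockout samples. Every knockout sample lay below every control sample, and the difference was -0.32 (SE 0.14), with an unadjusted p of 0.047 and a limma adjusted p of 0.194. Eif2b4 did not overlap either, with a difference of -0.20 (SE 0.14). Eif2b5, the catalytic subunit, had the lowest mean difference of the group, -0.39 (SE 0.22), but its control samples at 1.35, 2.20 and 1.79 spread widely and the first of them lay below the knockout samples at 1.41, 1.36 and 1.39. Leaving out 1 array at a time moved this value between -0.60 and -0.18. Eif2b3 differed by -0.14 (SE 0.19) and Eif2b1 by -0.01 (SE 0.14).

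eIF3, the scaffold that holds the small subunit, mRNA and eIF4G together, gave values mostly on the same side of 0. Of its 13 genes 12 had a lower mean in knockout samples, the median was -0.25, and 6 did not overlap between groups, all of them lower (46.2%, against 21.6% of all genes). None had an unadjusted p under 0.05, and the smallest limma adjusted p was 0.228. With normexp and the 75th percentile Eif3h (-0.67), Eif3l (-0.70) and Eif3b (-0.61) passed (adjusted p = 0.0239, 0.0217 and 0.0262), a setting under which 35.5% of all genes did, while Eif3b was at -0.13 after quantile normalization. The genes without overlap were Eif3a, Eif3b, Eif3d, Eif3j, Eif3k and Eif3l, with differences from -0.34 to -0.18.

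Eif3h had the lowest mean difference, -0.36 (SE 0.17), with values of 7.92, 7.63 and 7.97 in control and 7.48, 7.28 and 7.68 in knockout samples. The highest knockout sample stood just above the lowest control sample. Eif3l was at 6.73, 6.53 and 6.77 in control and 6.39, 6.11 and 6.51 in knockout samples, a difference of -0.34 (SE 0.16). Eif3b, a core subunit on which the complex assembles, was at 2.94, 3.40 and 3.26 in control and 2.93, 2.81 and 2.84 in knockout samples, also a difference of -0.34 (SE 0.16), with the first samples of the groups almost level. Eif3c and Eif3f lay near 0 (-0.04, SE 0.13, and -0.02, SE 0.18), and Eif3g, an RNA-binding subunit, was the only one with a higher mean, by 0.04 (SE 0.13), which turned to -0.31 with normexp and the 75th percentile and to -0.03 with array weights.

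Among the cap-binding and helicase factors, Eif4e3 stood apart from the other 10 tested genes. It encodes a variant of the cap-binding protein eIF4E. Its values were -3.72, -4.15 and -3.46 in control and -2.12, -3.28 and -2.57 in knockout samples, all far below the 75th percentile. The groups did not overlap, and the gap between the second knockout and the third control sample was small. The difference was 1.12 (SE 0.32, 95% interval 0.38 to 1.87, a 2.18-fold ratio), with an unadjusted p of 0.009 and a limma adjusted p of 0.123. The probe was well above background on 3 of 3 control and 2 of 3 knockout arrays. Members not well above background on any array also had higher knockout means under this scaling. Their control and knockout means were -6.54 and -5.34 for Eif2s3y and -6.60 and -5.40 for Eef1a2. They were -6.48 and -5.35 for Eif4e1b and -4.67 and -4.48 for Eif5b. The part of such a shift in the Eif4e3 value was not tested. The Eif4e3 difference was 0.94 without the second control sample and 0.86 without the first knockout sample, both under 2-fold. It was 0.80 after quantile normalization and 0.13 with normexp and quantile normalization. With normexp and the 75th percentile it was 0.78 and passed (adjusted p = 0.0116), a setting under which 35.5% of all genes did.

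The remaining genes of this group lay at or below 0. Eif4e itself, the main cap-binding protein, was at 2.43, 2.34 and 2.51 in control and 1.98, 2.25 and 2.25 in knockout samples, without overlap, with a difference of -0.27 (SE 0.15, limma adjusted p = 0.268). Its dimmer probe gave 0.23 (SE 0.19), and the mean of both was -0.018. Eif4b and Eif4h, which stimulate the helicase, did not overlap either, with differences of -0.23 (SE 0.14) and -0.20 (SE 0.15). The helicase genes Eif4a1 and Eif4a2 had differences of 0.00 (SE 0.16) and -0.30 (SE 0.18), and Eif4a3, which belongs to the exon junction complex and not to cap binding, had -0.24 (SE 0.17). The scaffold genes Eif4g1, Eif4g2 and Eif4g3 had -0.19 (SE 0.14), -0.27 (SE 0.20) and -0.17 (SE 0.14), and Eif4e2, a cap-binding protein that represses translation, had -0.06 (SE 0.15). Eif4e1b was not well above background on any array.

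The inhibitors of eIF4E gave means of opposite sign for the best-known pair. Eif4ebp1 was at 3.68, 3.70 and 3.82 in control and 3.01, 3.72 and 3.46 in knockout samples, where the second knockout sample lay among the control samples and the first far below them. The difference was -0.33 (SE 0.20), and it lay between -0.50 and -0.14 when 1 array was left out. Eif4ebp2 was at 4.08, 4.23 and 4.38 in control and 4.51, 4.40 and 4.67 in knockout samples, so that every knockout sample was higher, with a difference of 0.29 (SE 0.15, limma adjusted p = 0.257). It was 0.002 with normexp and the 75th percentile. Eif4ebp3 and Eif4enif1, which encodes the 4E-T protein that carries eIF4E into the nucleus, had -0.10 (SE 0.14) and -0.13 (SE 0.16).

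In the group that selects the start codon, Eif1ax was the gene with the smallest p. It encodes eIF1A and is X-linked. Its values of 4.27, 4.21 and 4.28 in control and 3.77, 3.77 and 3.93 in knockout samples were tight within groups and did not overlap. The difference was -0.43 (SE 0.13, 95% interval -0.74 to -0.12), with an unadjusted p of 0.013 and a limma adjusted p of 0.132. With quantile normalization it was -0.24, and with normexp and the 75th percentile -0.71 with an adjusted p of 0.0163. The near-identical Eif1a, and Eif1 and Eif1b, which encode the guardians of start codon accuracy, had differences of -0.04 (SE 0.15), -0.02 (SE 0.23) and -0.03 (SE 0.13), and the signs of these 3 depended on the scaling: Eif1a and Eif1b were above 0 after quantile normalization (0.16 and 0.15), whereas Eif1 was at -0.20 there and above 0 only with scaling on the median of detected probes (0.077), among the scalings tried. Eif5, which triggers GTP hydrolysis by eIF2, had -0.27 (SE 0.21). The Eif5b probe was not well above background on any array, so the subunit joining factor was not measured.

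Eif5a, whose product helps the ribosome past poorly reacting peptide bonds, had the lowest mean difference of all members, -0.54 (SE 0.24, 95% interval -1.10 to 0.02, limma adjusted p = 0.208). Its control samples were at 4.41, 5.31 and 4.67 and its knockout samples at 4.35, 4.19 and 4.23. The groups did not overlap, but the second control sample stood well above the rest, and without it the value was -0.28. With normexp and the 75th percentile it was -0.86 and passed (adjusted p = 0.0126). Eif5a2, its tissue-restricted relative, was at -1.37, -1.38 and -1.27 in control and -1.36, -0.74 and -0.43 in knockout samples, with the first knockout sample at the level of the controls and a difference of 0.50 (SE 0.24, limma adjusted p = 0.232). This value lay between 0.29 and 0.76 when 1 array was left out, was 0.25 with normexp and quantile normalization, and passed with normexp and the 75th percentile (0.51, adjusted p = 0.0453). Eif6, which keeps the large ribosomal subunit from joining too early, was level between groups (-0.04, SE 0.14). Eif1ad, which was put in no functional group, had -0.32 (SE 0.15) without overlap.

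**Figure D3:**
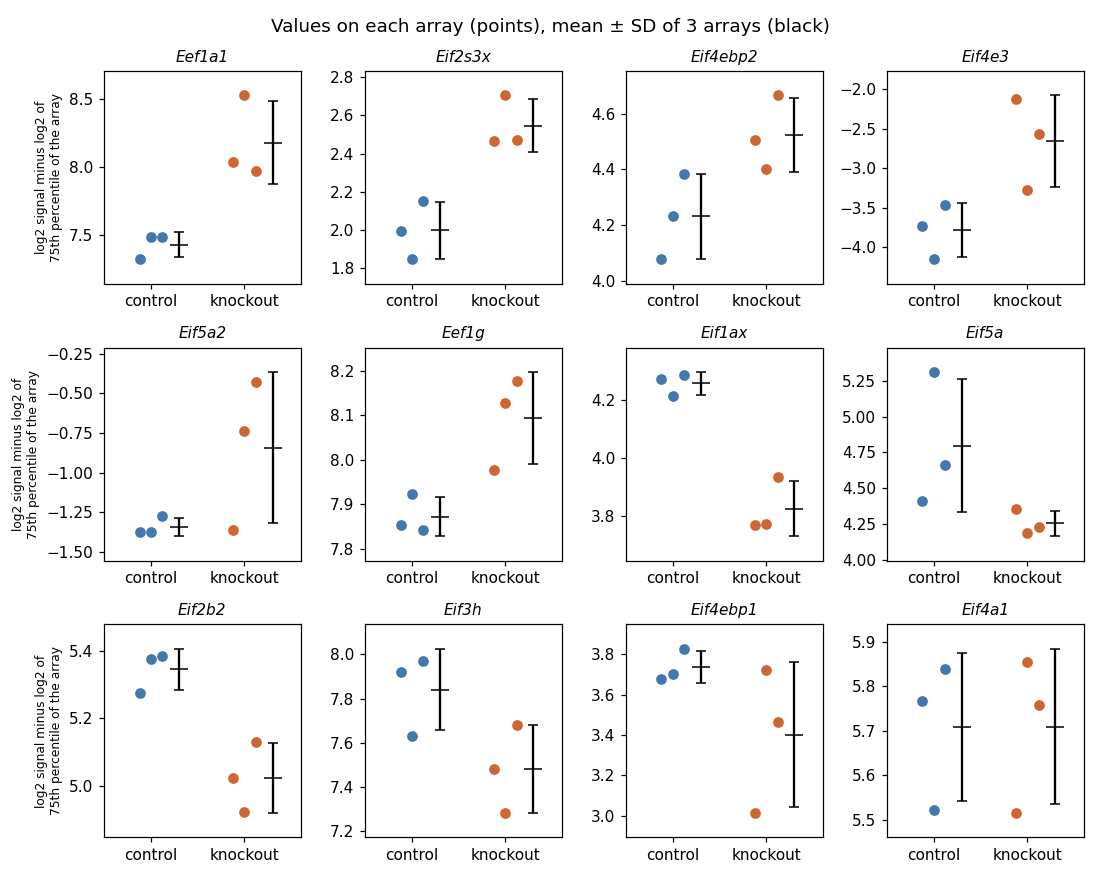
Values on each array (points) for 12 members, as log2 signal minus the log2 of the array's 75th percentile (vertical axis, scaled per panel), with mean ± SD of 3 arrays in black. In Eef1a1, Eif2s3x, Eif4ebp2, Eif4e3 and Eef1g every knockout sample lies above every control sample, in Eif1ax, Eif5a and Eif2b2 every one lies below, and Eif5a2, Eif3h, Eif4ebp1 and Eif4a1 overlap.

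The argonaute genes under the older Eif2c names divided evenly, 2 higher and 2 lower. Eif2c2 (Ago2, the argonaute that can cut its target) was at 2.74, 2.53 and 2.80 in control and 3.00, 3.04 and 3.06 in knockout samples, a difference of 0.34 (SE 0.14), and Eif2c3 (Ago3) at -2.24, -2.40 and -2.35 against -1.71, -1.85 and -1.97, a difference of 0.48 (SE 0.14). Neither overlapped between groups, their unadjusted p-values were 0.044 and 0.011, and their limma adjusted p-values 0.190 and 0.129. Eif2c3 reached an adjusted p of 0.0482 with array weights and 0.0283 with normexp and the 75th percentile, while the value of Eif2c2 shrank to 0.07 under the latter. The Eif2c3 difference was 0.27 after quantile normalization, 0.26 in the deposited table and 0.11 with normexp and quantile normalization, without passing. That of Eif2c2 was 0.54 after quantile normalization, also without passing. Eif2c1 and Eif2c4 overlapped, with differences of -0.30 (SE 0.26) and -0.31 (SE 0.20). Without these 4 genes the median of the members was -0.18 and 45 of 53 were lower.

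Pairs of related genes were compared within each array, where the scaling between arrays cancels unless it is intensity dependent. The smallest two-sided exact permutation p that 3 against 3 arrays allow is 0.1, so no pair could pass 0.05. In 5 of the 9 measured pairs the values did not overlap between groups, each with that smallest p. Of all single genes 36.3% did not overlap in either direction, and no such share was computed for pairs of genes. Eif4e minus Eif4e3 differed by -1.39 (SE 0.37), with the Eif4e3 probe not well above background on 1 knockout array, so that the size is uncertain, and by -0.24 with normexp and quantile normalization. Eif5a minus Eif5a2 differed by -1.04 (SE 0.36), from 5.78, 6.69 and 5.94 in control to 5.71, 4.92 and 4.65 in knockout samples. The first knockout sample lay just below the lowest control sample, and the difference was -0.61 with normexp and quantile normalization. Both of these pairs set a bright probe against a dim one. Mean log2 signals were 9.72 for Eif4e and 4.20 for Eif4e3, and 11.9 for Eif5a and 6.33 for Eif5a2. The median difference of all genes was 0.11 in the dimmest class by signal and -0.18 in the brightest. The part of this dependence on signal in the values of these pairs was not tested.

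Eif4ebp1 minus Eif4ebp2 was at -0.40, -0.53 and -0.56 in control and -1.49, -0.68 and -1.20 in knockout samples, a difference of -0.63 (SE 0.22), and it lay between -0.85 and -0.44 under the 12 alternatives run for pairs. Eif1a minus Eif1ax was at -0.51, -0.40 and -0.42 against -0.23, 0.09 and -0.01, a difference of 0.39 (SE 0.12), and 0.32 to 0.48 under the same 12. These pairs thus kept unequal shifts under the scalings tried. Eef1b2 minus Eef1d did not overlap by a small amount, 0.09 (SE 0.09), and was -0.01 after quantile normalization. The pairs Eif4a1 and Eif4a2 (0.30, SE 0.18, exact p = 0.2), Eif4e and Eif4e2 (-0.21, SE 0.15, exact p = 0.3), Eif4g1 and Eif4g3 (-0.01, SE 0.15, exact p = 1) and Eif1 and Eif1b (0.02, SE 0.20, exact p = 0.9) overlapped. The value of Eif1 minus Eif1b was -0.35 after quantile normalization and in the deposited table and -0.36 with normexp and quantile normalization. The p-values are unadjusted over 9 pairs.

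**Figure D4:**
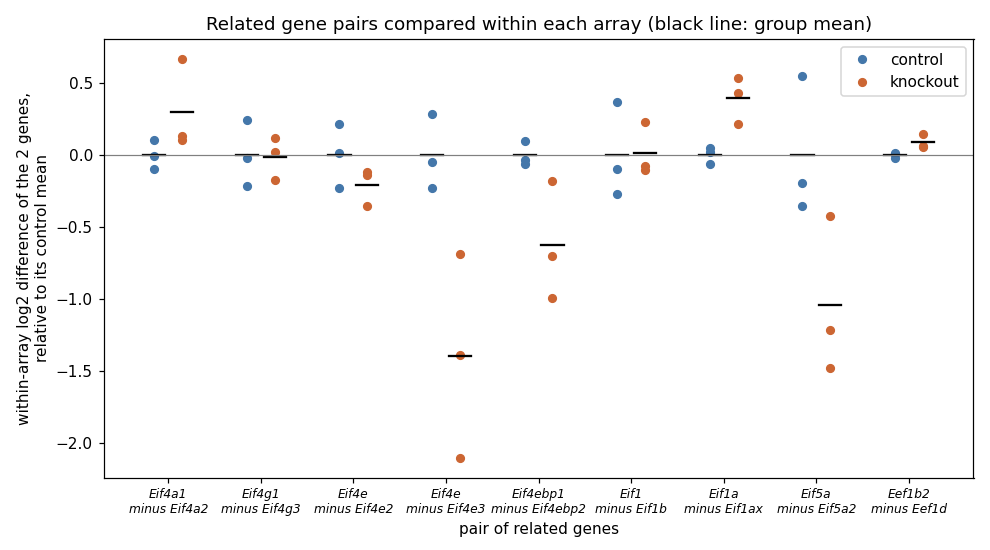
Within-array log2 difference of 9 pairs of related genes (vertical axis, relative to the control mean of the pair), with 1 point per array and black lines for group means. Eif4e minus Eif4e3, Eif4ebp1 minus Eif4ebp2 and Eif5a minus Eif5a2 lie lower in all 3 knockout samples, and Eif1a minus Eif1ax lies higher.

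Several members were read by more than 1 probe, and these did not always give the same direction. Of 23 members with more than 1 tested probe, 9 (39.1%) had a brightest and a dimmest probe of opposite sign, against 35.3% of 4544 such genes on the whole array. In a fit over all probes, 87 of the 92 member probes were tested and none passed (smallest limma adjusted p 0.111). Both Eef1a1 probes, which lie next to each other and share the bases in capitals above, gave higher values in knockout samples, by 0.75 and 0.50. The dimmer one was at 7.19, 7.20 and 7.19 in control and 7.57, 7.97 and 7.53 in knockout samples. As the probes overlap, they are not independent readings, and signal from the processed pseudogenes that Eef1a1 is known for was not tested.

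The 3 Eef1g probes disagreed. The brightest gave 0.22, while the next and the dimmest, both nearer the start of the gene, gave -0.38 (SE 0.18) and -0.29 (SE 0.19). For Eif2s3x the brightest probe gave 0.55, the one annotated over several kilobases 0.00 (SE 0.18) and the dimmest 0.11 (SE 0.25). The dimmest was well above background on 3 of 3 control but only 1 of 3 knockout arrays, so its value is uncertain. The higher signal of this gene thus rests on the probe nearest its 3′ end. The mean of its tested probes, the dimmest included, was 0.22. Eif4a2 gave -0.30 by its brightest probe but 0.65 (SE 0.18, limma adjusted p = 0.124) by a probe farther upstream, at 3.26, 2.91 and 3.49 in control and 3.83, 3.79 and 3.98 in knockout samples. Here the groups did not overlap. Eif2c2 was higher by both of its probes, by 0.34 and 0.78 (SE 0.21), and Eif4g3 had -0.17 and 0.60 (SE 0.25). Which transcript forms each probe reads was not tested.

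**Figure D5:**
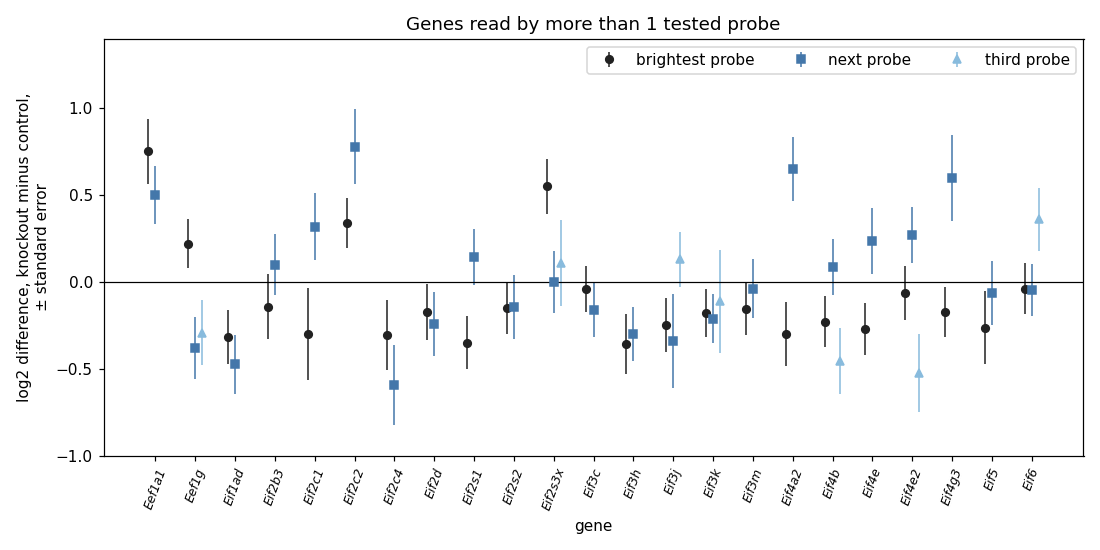
Log2 difference between genotypes (vertical axis, ± 1 standard error) for each tested probe of the 23 members with more than 1, ordered by probe signal within the gene (circle brightest, square next, triangle after that). Both probes of Eef1a1 and of Eif2c2 lie above 0, whereas those of Eef1g, Eif4a2 and Eif4g3 lie on both sides.

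Other genes of the translation pathway, 42 in lists beside the members, also held no gene past an adjusted p of 0.05 in limma or the 2-fold criterion, with 41 tested. At an unadjusted p under 0.05, 10 were lower in knockout samples (24.4%, against 13.6% of all genes and 3.51% of the members) and 0 were higher (against 11.6% of all genes and 8.77% of the members). No test compared these shares. The kinases and phosphatase subunits that act on the factors, 13 genes with Eif2ak1 to Eif2ak4 and Eef2k among them, had a median of -0.20, with 3 (23.1%) lower at an unadjusted p under 0.05. The termination and recycling factors had a median of -0.34, with all 7 tested below 0 and 2 (28.6%) past the unadjusted threshold. The poly(A)-binding proteins and their partners had -0.15, and the enzymes that modify eIF5A and eEF2 had -0.28, with 2 lower at the unadjusted threshold in each (28.6% and 33.3%). The target genes of the amino acid stress response, which rise when eIF2 is phosphorylated, had a median of 0.00, with 4 of 8 on each side of 0 and 1 lower at an unadjusted p under 0.05. This median is imprecise, as some of these genes varied widely within groups. Standard errors were 0.85 for Trib3, 0.73 for Chac1, 0.52 for Psat1 and 0.50 for Asns, against 0.14 for Phgdh and Sesn2.

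Markers of dividing and antibody-secreting cells had lower means in knockout samples as well, and none passed an adjusted p of 0.05 in limma. Of the 12 proliferation markers 11 were tested and all 11 had a lower mean in the knockout group (median -0.85), 9 (81.8%, against 13.6% of all genes) at an unadjusted p under 0.05 and 4 past the 2-fold criterion. Their summed level was 54.2 to 63.4 in control and 36.6 to 42.5 in knockout samples, and Aurkb was not well above background. All 5 tested plasma cell markers of 7 listed had a lower mean, 2 of them at an unadjusted p under 0.05 and 3 with overlapping groups, with a summed level of 68.6 to 75.6 against 46.7 to 59.5, and Tnfrsf17 was not well above background on any array. The summed T cell markers (5 of 8 listed tested) were at 4.82 to 5.51 in control and 5.53 to 7.1 in knockout samples, with 2 of the 5, Cd3d (1.41) and Cd3e (0.60), higher at an unadjusted p under 0.05 (40%, against 11.6% of all genes) and 1 past the 2-fold criterion. Of the remaining lists, the macrophage markers (6 of 9 tested, all 6 with a lower mean, median -0.41, 1 of them, Lyz2 at -1.08, past the 2-fold criterion) were at 14.7 to 27 against 12 to 23.2, the granulocyte and mast cell markers (3 of 8) at 0.944 to 4.28 against 0.987 to 1.96, and the NK cell markers (2 of 6) at 0.581 to 0.724 against 0.711 to 1.09, with Ncr1, Klrb1c and Klrk1 not well above background. The part of these cells, and of the lower overall signal of the knockout arrays, in the values of the translation factor genes was not tested.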

How the data were processed

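Total RNA of sorted PC B1a cells was labelled with Cy3 and hybridised to 1-colour Agilent mouse arrays, 3 for each genotype. The deposited scanner files hold intensity values made by the authors with Agilent Feature Extraction 10.7.1.1 (per the labels), of which the processed signal is background-corrected. The deposited log2 table of the same arrays holds values with the same distribution on every array, as quantile normalization gives, and served as an alternative. Here log2 processed signals were scaled by the 75th percentile of the 59305 non-control spots of each array. Outlier spots were left out and spots of a probe averaged. A gene was tested where its brightest probe exceeded the background clearly (the scanner's flag) on each of the 3 arrays of either genotype and was measured on at least 2 of each. Genotypes were compared with limma 3.58.1 (R 4.3.3) and Benjamini-Hochberg adjustment over all 18233 genes tested, and the code was tested on simulated data.

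The members and gene lists were chosen with earlier results of these data known. Values per array were given for members past a threshold, the 8 largest increases and 8 largest decreases among members well above background on all arrays, the 8 brightest members and the pairs of related genes, in full or as differences. Eif2b2, Eif4b, Eif4h, Eif2b4 and the other members were named after their values were seen. All 61 members matched a RefSeq gene, 5 under another symbol. Signal over background and the number of arrays limit the precision. No pair of arrays had identical signals. Alternatives changed the background correction, scaling, filter, probe choice, test, replicate block and arrays.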

Additional observations from a re-analysis of the deposited data

How the results depend on the processing

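The absence of members at an adjusted p under 0.05 held in most alternatives, but 19 members passed with normexp and the 75th percentile (16 lower, 3 higher, when 35.5% of all genes passed), 3 with array weights (Eef1a1, Eif2c3 and Eif4e3, 7.11% of all genes) and 1 with trend and robust estimation (Eef1a1, 4.14%). The causes were not tested. The 2-fold call of Eif4e3 was lost, leaving 0 members, after quantile normalization, with either normexp setting, in the deposited table and when probes had to be well above background on all 6 arrays, and 4 of 61 members passed with no filter, when 10640 of all 36163 genes did. Leaving out 1 array gave 0 to 1 members past 2-fold (0 without control replicate 2 or knockout replicate 1), 0 to 0 at the adjusted p, and a median of -0.21 to -0.11. The median of the members was -0.065 with quantile normalization (-0.067 over all genes) and -0.081 with scaling on detected probes (-0.021 over all genes). With normexp and the 75th percentile it was -0.45 (-0.097 over all genes). It was -0.051 with normexp and quantile normalization (-0.046 over all genes) and -0.077 in the deposited table (-0.079 over all genes). The gap between members and all genes thus depended on the setting. Over all genes, 2 to 6464 passed the adjusted p and 162 to 10640 the 2-fold criterion, and with no filter the median of all genes was 0.40.

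Signs were followed for 30 members, those chosen by the rule above for values per array, and turned for the ones listed here. The remaining members were not followed one by one. Some of them turned as well, since the members lower fell from 47 to 34 with quantile normalization. With quantile normalization Eif1a was at 0.16, Eif1b at 0.15, Eif4e2 at 0.12 and Eif4g3 at 0.013. Scaling on detected probes gave Eif1 0.077, Eif1a 0.056, Eif1b 0.061, Eif4e2 0.031 and Eef1b2 0.021. Normexp with the 75th percentile gave Eif3g -0.31, Eif4a1 -0.31 and Eef1g -0.10, and normexp with quantile normalization Eif1a 0.17, Eif1b 0.15, Eif4e2 0.10 and Eif4g1 0.0012. The deposited table gave Eif1a 0.14, Eif1b 0.14, Eif4e2 0.11 and Eif4g3 0.0043. The mean of a gene's probes gave Eif4a2 0.17, Eif4g3 0.21 and Eef1g -0.15, and array weights gave Eif3g -0.026 and Eif4a1 -0.13. Leaving out 1 array moved Eif1 between -0.17 and 0.20, Eif1a between -0.11 and 0.080, Eif4a1 between -0.093 and 0.097 and Eif4e2 between -0.17 and 0.0067.

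Samples of the 2 groups share replicate numbers, but same-numbered deviations correlated at 0.185, 0.0564 and 0.0944, so the numbers were not taken as pairs. With the replicate number as a block 0 members passed (smallest limma adjusted p 0.12), 1 was past 2-fold, the median was -0.18, and 4 of all genes passed against 7 without the block.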
